A study of Mus musculus with 2 samples.

Results

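Ribosomal protein genes encode the proteins that are built, together with ribosomal RNA, into the large and the small subunit of every cytoplasmic ribosome. They were taken from the GENCODE annotation of mm10 as the protein-coding genes whose symbol is Rpl or Rps followed by a number, with an optional letter and an optional x or l at the end, plus Rplp0, Rplp1, Rplp2 and Rpsa. The ribosomal S6 kinases, whose symbols begin with Rps6k, were left out. The rule gave 81 genes of 21938 protein-coding genes, 50 of the large and 31 of the small subunit, spread over 19 chromosomes with 4 of them on X.

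The data are DNase-seq of left cerebral cortex, an assay that maps where the nuclease DNase I can cut the DNA of nuclei, mostly at promoters and enhancers. The tissue came from 2 female mice of the hybrid strain B6CASTF1/J aged 36 days, with 1 library per animal. The labels number the libraries replicate 1 and replicate 2 and give both animals the same donor entry, and the libraries form 1 group without a treatment or a second genotype. No difference between conditions can therefore be tested, and every value below describes these libraries.

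Cells need these proteins in matched amounts, and in neurons ribosomes are made in the cell body and also serve local translation in dendrites and axons. The messages of these genes begin with a run of C and T, the terminal oligopyrimidine tract, through which the kinase mTOR and the RNA-binding protein Larp1 control their translation. Many of the genes also carry, inside introns, small nucleolar RNAs (snoRNAs) that guide the modification of ribosomal RNA.

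Replicate 1 held 69208 peaks and 318728 footprints, and replicate 2 held 69128 peaks and 317176 footprints. A peak is a stretch the authors called accessible, and a footprint is a short protected stretch inside such DNA. The number of reads is unknown, and with it the depth, so no counting interval can be given. A promoter peak means here a region found in both libraries that reaches to within 1 kb of any annotated start of the gene. Promoter peaks were found at 6 of 6 marker genes of cortical excitatory neurons, 1 of 3 of interneurons, 3 of 4 of astrocytes and 2 of 4 of the oligodendrocyte lineage. None of the 3 markers each of microglia, vessels and blood had one, and 1 of 6 markers of other organs did (Ckm). The tissue is a mixture of cell types, so fewer cells with an open promoter and less accessible promoters in every cell cannot be told apart.

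Promoters of the highest and lowest members and of the members without a peak are printed first, since the height, footprint and motif results below turn on them. Each runs 5′ to 3′ on the strand of the gene and spans 90 bases before to 30 bases after the annotated start nearest to the peak (for genes without a peak, the start of the gene entry), read from the GRCm38 (mm10) RefSeq assembly. Capitals mark bases that lay in a footprint in both libraries.
Rplp0 (chr5:115559377-115559496, + strand): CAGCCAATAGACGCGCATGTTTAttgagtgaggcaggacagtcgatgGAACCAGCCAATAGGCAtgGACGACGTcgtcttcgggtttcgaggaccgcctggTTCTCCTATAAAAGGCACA
Rpl7a (chr2:26910674-26910793, + strand): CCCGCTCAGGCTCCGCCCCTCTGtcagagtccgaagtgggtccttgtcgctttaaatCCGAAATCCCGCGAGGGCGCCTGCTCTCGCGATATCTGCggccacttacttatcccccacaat
Rps12 (chr10:23787246-23787365, - strand): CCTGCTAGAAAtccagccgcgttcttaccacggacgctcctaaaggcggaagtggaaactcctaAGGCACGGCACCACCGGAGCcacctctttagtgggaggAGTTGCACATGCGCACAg
Rpl26 (chr11:68901493-68901612, + strand): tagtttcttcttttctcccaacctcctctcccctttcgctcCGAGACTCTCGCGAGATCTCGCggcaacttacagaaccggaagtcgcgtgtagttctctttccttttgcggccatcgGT
Rpl6 (chr5:121204456-121204575, + strand): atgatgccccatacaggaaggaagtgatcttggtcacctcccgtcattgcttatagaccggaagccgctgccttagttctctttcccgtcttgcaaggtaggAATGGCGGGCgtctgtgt
Rps4x (chrX:102189307-102189426, - strand): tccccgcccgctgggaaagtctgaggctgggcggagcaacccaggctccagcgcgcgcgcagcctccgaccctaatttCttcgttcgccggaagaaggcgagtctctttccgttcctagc
Rpl39 (chrX:37085373-37085492, - strand): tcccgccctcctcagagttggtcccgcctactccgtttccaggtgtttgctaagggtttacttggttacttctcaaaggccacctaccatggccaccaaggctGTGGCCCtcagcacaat
Rpl10l (chr12:66284372-66284491, - strand): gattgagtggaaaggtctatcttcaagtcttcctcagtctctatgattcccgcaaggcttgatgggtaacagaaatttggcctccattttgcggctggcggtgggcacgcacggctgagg
Rpl39l (chr16:10170136-10170255, + strand): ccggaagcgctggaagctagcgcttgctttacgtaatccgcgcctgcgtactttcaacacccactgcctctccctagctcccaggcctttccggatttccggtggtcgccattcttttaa
Rpl3l (chr17:24727730-24727849, + strand): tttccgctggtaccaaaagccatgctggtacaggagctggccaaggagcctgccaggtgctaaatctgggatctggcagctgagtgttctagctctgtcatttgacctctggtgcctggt

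Footprints of both libraries took 67 of the 120 bases at Rplp0, 62 at Rpl7a, 48 at Rps12 and 24 at Rpl26. They took 10 bases at Rpl6, 7 at Rpl39 and 1 at Rps4x, and none at Rpl10l, Rpl39l and Rpl3l. At Rplp0, both copies of CCAAT, the letters bound by NFY, and a TATAAA lay in footprints. That TATAAA begins after the annotated start and not before it, where a TATA box usually sits.

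Nearly all ribosomal protein genes had an open promoter in cortex. A promoter peak was present at 78 of the 81 genes (96.3%), and at 61.0% of the 21857 other protein-coding genes. It was found at 31 of 31 small subunit genes and 47 of 50 large subunit genes, and each library by itself gave the same 78. The 3 genes without a peak are Rpl10l, Rpl39l and Rpl3l, retrocopies or paralogs of Rpl10, Rpl39 and Rpl3. As background, Rpl10l and Rpl39l are known from testis and Rpl3l from heart and skeletal muscle.

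The peaks were also high within their lists. Heights carry a scaling factor per library that is not stated, so each was expressed as the percent of peaks in its own list that are as high or lower. The highest promoter peak of the 78 genes had a median percentile of 94.4 in replicate 1, with a range of 68.3 to 99.97, and of 96.1 in replicate 2, with a range of 78.0 to 99.97. For the 13323 other genes with a promoter peak the medians were 87.3 in replicate 1 and 89.4 in replicate 2. All 78 peaks lay above the median of their list in both libraries, as did 89.5% of those of the other genes. The peak was in the top 10% of its list in both libraries for 53 of 81 ribosomal protein genes (65.4%), against 24.0% of other protein-coding genes. These shares and medians describe the set and were not tested, and no account was taken here of gene activity, which DNase-seq does not measure.

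**Figure D1:**
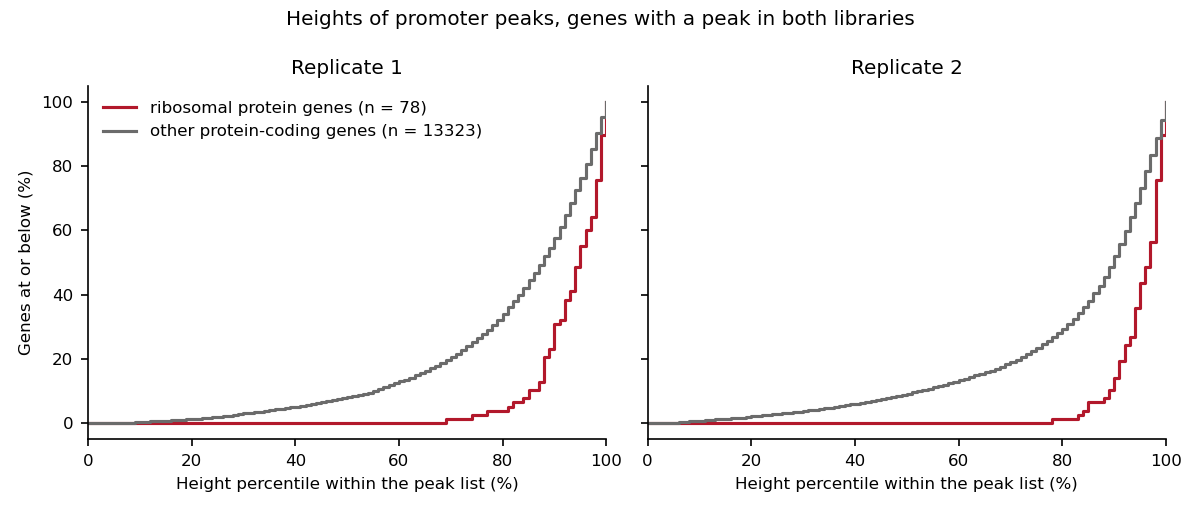
Cumulative share of genes (vertical axis, percent) against the height percentile of the promoter peak within its own list (horizontal axis, percent), for ribosomal protein genes (red) and other protein-coding genes (grey) with a promoter peak in both libraries, in replicate 1 (left) and replicate 2 (right). The red curve lies to the right of the grey one, with medians of 94.4 against 87.3 in replicate 1 and 96.1 against 89.4 in replicate 2.

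Rplp0, the protein at the base of the ribosomal stalk that recruits translation factors, had the highest peak of the set. Its height was 19.1 in replicate 1 and 10.1 in replicate 2, in the authors' signal units, at percentile 99.97 of both lists. Its partners in the stalk, the acidic proteins Rplp1 and Rplp2, were lower. Rplp1 had heights of 6.67 and 5.03 in replicates 1 and 2 (percentiles 95.9 and 97.0), and Rplp2 had 5.46 and 5.36 (percentiles 92.8 and 97.6). Rpsa, a small subunit protein also known as the laminin receptor, had heights of 6.00 and 4.93 (percentiles 94.3 and 96.8). In percentiles the 3 stalk genes lay in the upper part of the range of the set, although Rplp2 was below the set's median of 94.4 in replicate 1. The 3 genes ran from 92.8 to 99.97 in replicate 1, where the set ran from 68.3 to 99.97. In replicate 2 they ran from 97.0 to 99.97, where the set ran from 78.0 to 99.97.

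Among the other large subunit genes, Rpl7a had heights of 12.4 in replicate 1 and 7.40 in replicate 2 (percentiles 99.8 and 99.6). Rpl26, which in human cells also binds the p53 message, had 13.0 and 6.48 (percentiles 99.8 and 99.1). Rpl23, which can also inhibit the p53 ligase Mdm2, had 10.7 and 6.97 (percentiles 99.5 and 99.4). Rpl9 had 11.4 and 6.19 (percentiles 99.6 and 98.8). Each of these peaks was within the top 2% of its list in both libraries.

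Both subunits had similar heights. The small subunit's 31 genes had median percentiles of 94.3 in replicate 1 and 95.5 in replicate 2, and the 47 open large subunit genes had 94.4 and 96.2. Rps12 led the small subunit with heights of 10.6 in replicate 1 and 7.60 in replicate 2 (percentiles 99.4 and 99.7). Rps6, the substrate of the S6 kinases, had 7.30 and 5.14 (percentiles 97.0 and 97.2).

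The lowest open promoters were those of Rpl39, Rps4x, Rpl6, Rpl4, Rpl10 and Rps26. Rpl39, a very short protein inside the peptide exit tunnel, had heights of 1.88 in replicate 1 and 2.00 in replicate 2 (percentiles 68.3 and 82.0). Rps4x had 2.48 and 1.71 (percentiles 76.1 and 78.0). Rpl6 had 2.23 and 2.20 (percentiles 73.2 and 84.3). Rpl39 and Rpl6 each differed between the libraries by more than 10 points of percentile, while Rps4x was low in both. Rpl4, which lines part of the exit tunnel, had 3.15 and 2.22 (percentiles 81.7 and 84.5). The Rpl4 peak covered no start of the gene, with its centre at −454.5 bases from the nearest one in both libraries. It also came within 1 kb of a start of Zwilch, so its height may not be that of the Rpl4 promoter. Rpl10, which joins the large subunit late in its assembly, had 2.95 and 2.58 (percentiles 80.1 and 87.4). Rps26, a protein at the exit of the messenger channel, had 4.23 and 2.11 (percentiles 88.0 and 83.3). Even these lay above the median of their lists.

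**Figure D2:**
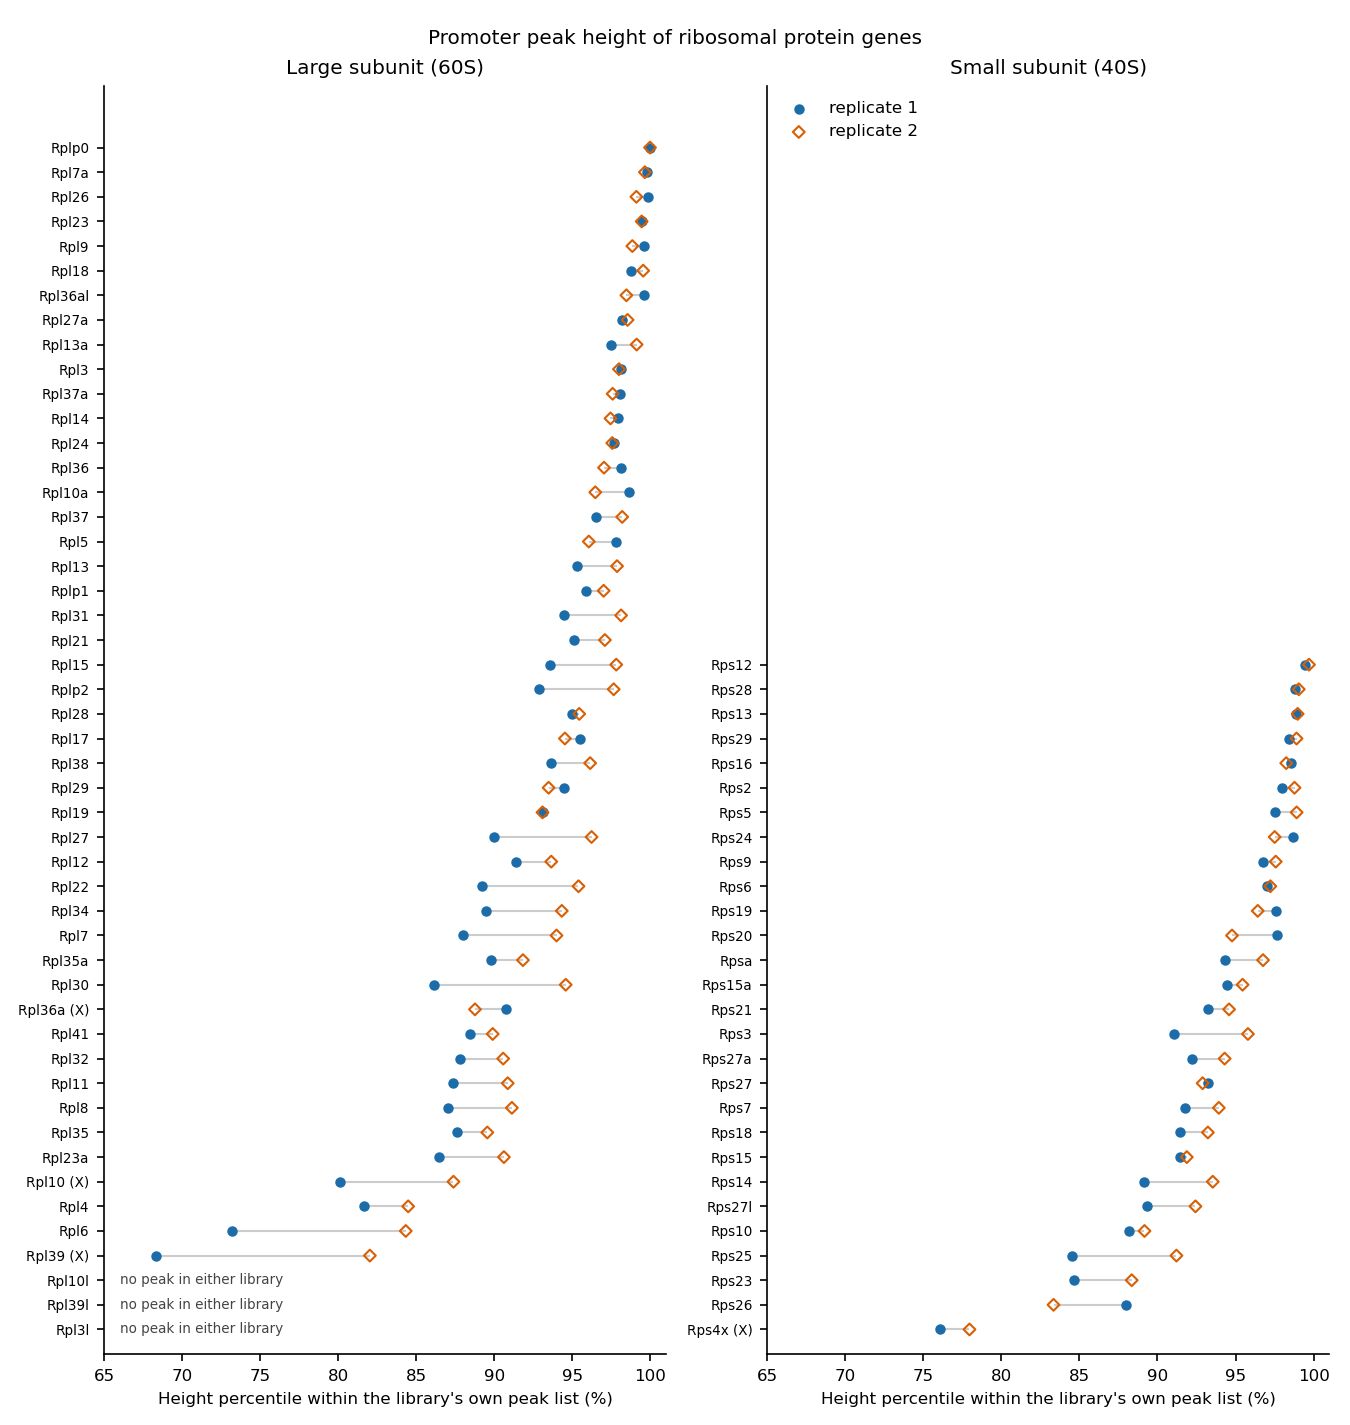
Height percentile of the promoter peak within each library's own list (horizontal axis, percent) for 49 large subunit genes (left) and 28 small subunit genes (right), sorted by the mean of both libraries, with replicate 1 as filled circles, replicate 2 as open diamonds and (X) after X-linked genes. Values run up to 99.97 at Rplp0 and down to 68.3 and 82.0 at Rpl39, and Rpl10l, Rpl39l and Rpl3l have no peak.

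X-linked members were low. This was noticed after their values were seen: Rpl39, Rps4x and Rpl10, 3 of the 4 members on X, are among the 6 lowest. The fourth, Rpl36a, had heights of 4.86 in replicate 1 and 2.80 in replicate 2 (percentiles 90.7 and 88.8). The 4 X-linked members had median percentiles of 78.1 in replicate 1 and 84.7 in replicate 2, against 94.5 and 96.3 for the 74 open members on autosomes. Other protein-coding genes showed the same order, with medians of 68.1 and 73.9 for 425 open genes on X against 87.8 and 89.8 for 12898 on autosomes. CpG pairs in the promoter moved with it, with a median of 15 in X-linked and 19.5 in open autosomal members. The part of CpG content, of the silencing of 1 X chromosome in female cells or of any other property of X in these values was not tested.

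**Figure D3:**
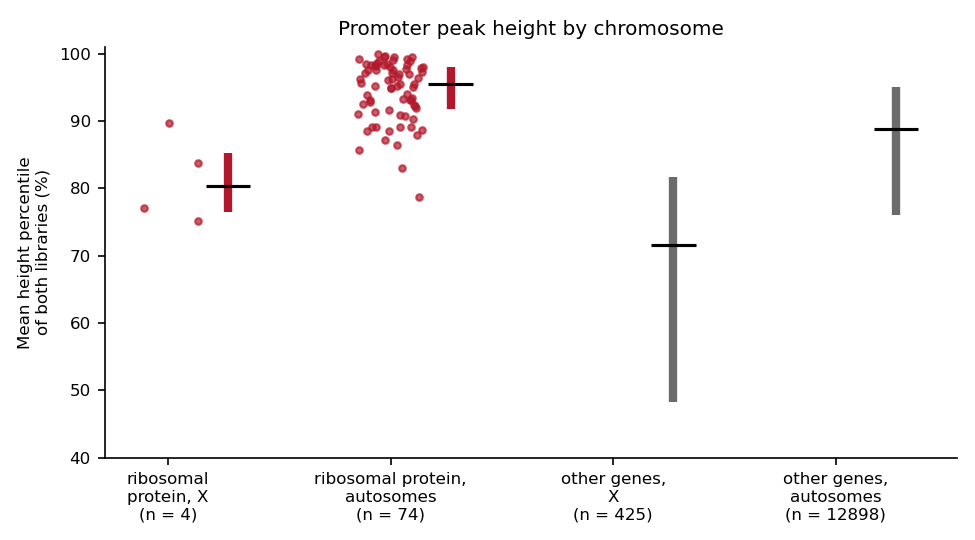
Mean height percentile of both libraries (vertical axis, percent, starting at 40) for genes with a promoter peak: ribosomal protein genes on X and on autosomes (red, 1 point per gene) and other protein-coding genes on X and on autosomes (grey, no points drawn). Bars span the quartiles and black lines mark the medians, which are 80.4, 95.5, 71.6 and 88.8 in that order.

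Genes that form pairs of parent and paralog differed in whether both were open. Rpl3, a protein next to the peptidyl transferase centre, had heights of 8.21 in replicate 1 and 5.57 in replicate 2, while its paralog Rpl3l had no peak, no footprint and no base under a cut-rate false discovery rate of 0.001 within 1 kb of a start in either library. The nearest peak to a start of Rpl3l was 3260 bp away in both libraries, although its neighbour Rps2, which ends 5891 bp before it, was open at heights of 8.08 and 6.14. Rpl39l and Rpl10l were equally empty. The nearest peaks were 22553 and 22573 bp away for Rpl39l in replicates 1 and 2, and 247841 and 247825 bp away for Rpl10l. In the authors' longer peak lists, which admit weaker peaks, these 3 genes still had none.

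Other pairs were open on both sides. Rps27l, a paralog induced by p53, had heights of 4.53 in replicate 1 and 3.55 in replicate 2, close to the 5.58 and 3.66 of Rps27. Rpl36al, an autosomal retrocopy of the X-linked Rpl36a, had 11.3 and 5.90, against 4.86 and 2.80 for Rpl36a. The peak of Rpl36al, however, also comes within 1 kb of a start of Mgat2. Rpl22l1 lies outside the symbol rule and had 7.83 and 5.71, against 4.49 and 4.39 for its parent Rpl22. Rpl7l1, also outside the rule, had 4.03 and 3.27, against 4.23 and 3.95 for Rpl7. Of the remaining pairs considered, Rps4l is annotated as a pseudogene and Rpl26l1 was not found in the annotation. Rps3a1, whose symbol ends in a number and so misses the rule, encodes a small subunit protein and had heights of 14.1 and 6.37 (percentiles 99.9 and 99.0).

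Several promoters were shared. The highest peak of 16 of the 78 open members (20.5%) also came within 1 kb of the start of another protein-coding gene, and so did that of 20.3% of the other open genes. The pairs are Rpl7a with Med22, Rpl9 with Lias, Rpl18 with Sphk2, Rpl36al with Mgat2, Rps28 with Ndufa7, Rpl15 with Nkiras1, Rps27a with Clhc1 and Rps27 with Rab13. The other pairs are Rpl12 with Lrsam1, Rps18 with Vps52, Rpl7 with Rdh10, Rpl35a with Iqcg, Rps10 with the readthrough gene RPS10-NUDT3, Rpl35 with Arpc5l, Rps25 with Trappc4 and Rpl4 with Zwilch. In 15 of the 16 the partner lies on the opposite strand. The deposited height cannot be divided between the partners.

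Ribosomal protein promoters were compact. A single region within 1 kb of the starts was found at 63 of 78 genes (80.8%), against 58.1% of the other open genes, and 3 or more regions at 1 gene (1.28%, Rpl7), against 12.9%. The highest peak was no wider or narrower, with a median width of 240 bp in replicate 1 and 250 bp in replicate 2, against 240 and 260 bp for other genes. It covered an annotated start at 75 genes in replicate 1 (96.2%) and 74 in replicate 2 (94.9%), against 75.4% and 76.8% of other genes. Its centre lay a median of −24 bases from the nearest start in replicate 1 and −26.5 in replicate 2, upstream as at other genes, where it was −27.5 in both. The centre was within 100 bp of a start at 87.2% and 83.3% of ribosomal protein genes, against 67.3% and 65.2% of other genes. Ribosomal protein genes are short, with a median length of 3266 bp in open members against 26511 bp in other open genes, and the part of gene length in the region count was not tested. The highest peaks of the libraries overlapped at 77 of 78 genes (98.7%), against 95.6% of other open genes.

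Footprints were found in all open members. At least 1 footprint seen in both libraries lay within 1 kb of a start at 78 of 81 genes (96.3%), against 62.1% of other protein-coding genes. The number per open gene was the same as elsewhere, with a median of 9 in each library for ribosomal protein genes and for other genes. Of these, a median of 5 in replicate 1 and 6 in replicate 2 overlapped a footprint of the other library, against 5 and 5 at other genes. Rpl18, with 11 such footprints in each library, and Rps29, with 10 in replicate 1 and 11 in replicate 2, had the most. Rpl3 had 10 and 9, Rps24 had 9 and 10, and Rpl7 had 9 and 10. Rpl6 and Rps4x, both among the lowest peaks, had 1 in each library. Rpl37a, Rpl12, Rpl36a and Rpl41 had 2 in each. At Rpl37a few footprints overlapped between the libraries although the peak was high, with heights of 8.17 and 5.32 (percentiles 98.1 and 97.6). Each library by itself had more there, with 10 footprints in replicate 1 and 6 in replicate 2.

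Footprint cover near the start differed more than the number of footprints. Measured from the start nearest to the peak, a base between −50 and 49 lay in a footprint of both libraries in a mean of 24.0% of open members, against 17.1% of other open genes. The cover was 18.2% against 15.4% between −150 and −51, and 10.1% against 6.64% between 50 and 149. Between 150 and 249 it was 3.47% against 2.72%. Further upstream, between −250 and −151, it was 6.18% against 6.55%. Peaks of members more often covered a start (96.2% and 94.9% in replicates 1 and 2, against 75.4% and 76.8%). The part of this in the footprint cover was not tested. The single most covered position was −11 in ribosomal protein genes, at 38.5%, and −16 in other genes, at 22.3%. With 78 genes, 1 gene moves a position by 1.28 points, so the jagged course of the member curve carries that grain.

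**Figure D4:**
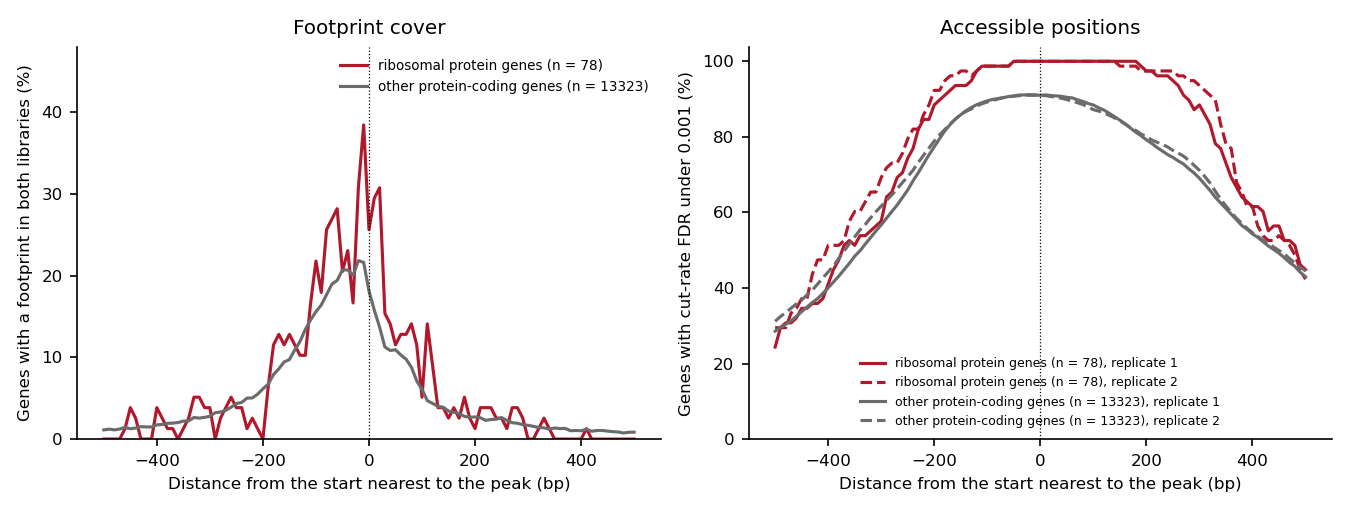
Share of genes (vertical axes, percent) with a footprint in both libraries (left) and with a cut-rate false discovery rate under 0.001 (right) against distance from the annotated start nearest to the peak (horizontal axes, bp), for 78 ribosomal protein genes (red) and 13323 other protein-coding genes (grey), solid for replicate 1 and dashed for replicate 2 on the right. Footprint cover reaches 38.5% against 22.3%, and accessibility reaches 100% against 91.2% in replicate 1 and 91.1% in replicate 2.

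The start itself was accessible in all open ribosomal protein genes. In both libraries every base between −50 and 49 was under a rate of 0.001 in 100% of the open members, while the highest share at any base was 91.2% and 91.1% in other genes. The order of the totals depended on the window. Within 1 kb of the gene's 5′ end alone, open members had a median of 848 bases under the rate in replicate 1 and 852.5 in replicate 2. Other open genes had 811 and 836. Within 1 kb of any annotated start, which searches more DNA where starts lie apart, the medians were 868 and 897, against 907 and 936 in other open genes. By that count Rpl7 and Rps18 had the most among open members, at 1613 and 1614 bases in replicate 1, and Rpl35 the fewest in that library, at 485.

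The element TCTCGCGA, the letters bound by the methylation-sensitive activator Banp, had the largest ratio between its share in members and in other genes among the 11 motifs searched. It occurred on either strand, from 250 bases before to 50 after the gene start, in 11 of 81 members (13.6%), against 1.33% of other protein-coding promoters and 2.00% of those with a peak. Around the start nearest to the peak it was found in 15 members (18.5%), against 1.47%. Of those 15 matches, 10 (66.7%) overlapped a footprint of both libraries, against 62.5% of the matches in other genes. The 11 members with a match at the gene start had median percentiles of 98.0 in replicate 1 and 97.7 in replicate 2, against 93.5 and 95.4 for the 67 open members without one. Other genes stood in the same order, with 94.0 and 95.3 with a match against 87.0 and 89.3 without. CpG pairs did too, with medians of 23 against 18 in open members and 25 against 19 in other open genes. The part of CpG content in these heights was not tested. Of the matches that overlap a footprint of both libraries, 7, with TCTCGCGA or its palindromic extension in capitals within 38 bases, are printed 5′ to 3′ on the gene's strand from GRCm38 (mm10), since they show how alike the cores and how unlike the flanks are.
Rpl10a (chr17:28328520-28328557, + strand): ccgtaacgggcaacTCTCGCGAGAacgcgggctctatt
Rpl12 (chr2:32961644-32961681, + strand): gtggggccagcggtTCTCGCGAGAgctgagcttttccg
Rpl26 (chr11:68901526-68901563, + strand): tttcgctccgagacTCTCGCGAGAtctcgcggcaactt
Rpl7a (chr2:26910741-26910778, + strand): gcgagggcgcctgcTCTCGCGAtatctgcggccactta
Rps15a (chr7:118116190-118116227, - strand): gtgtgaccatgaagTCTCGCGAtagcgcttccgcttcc
Rps28 (chr17:33824540-33824577, - strand): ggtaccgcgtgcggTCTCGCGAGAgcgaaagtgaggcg
Rps6 (chr4:86857395-86857432, - strand): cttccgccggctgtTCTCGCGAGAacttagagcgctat

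The 7 printed core matches are identical by the search itself, and 5 of them extend to a 10-base palindrome. All 7 lie within 100 bases of the start. A match is a description of letters and does not show that the protein was bound.

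Elements of other promoter factors differed by smaller ratios. The ETS core CCGGAAG, read by Gabpa and related activators, was in 22 members (27.2%), against 10.7% of other promoters and 15.9% of those with a peak. Of 36 ETS matches around the start nearest to the peak, 9 (25.0%) overlapped a footprint of both libraries, against 36.3% in other genes, and the matches at Rpl6 and Rps4x printed above are among those that do not. The YY1 letters AANATGGC were in 10 members (12.3%), against 6.14%. The E-box CACGTG, which Myc can bind, was in 11 (13.6%), against 7.73%. It was in 6 (7.41%), against 4.85%, when 100 bases before the start were searched, and in 8 (9.88%), against 7.92%, around the start nearest to the peak. The CRE TGACGTCA, read by Creb, was in 5 (6.17%), against 2.42%. Around the start nearest to the peak, 5 of 6 CRE matches (83.3%) overlapped a footprint of both libraries, against 86.5% in other genes.

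The GC-rich SP and KLF box GGGCGG was in 37 members (45.7%), against 43.0%. Among open promoters alone it was less common in members, at 46.2% against 60.1%. CCAAT, read by NFY, was in 26 members (32.1%), against 39.0%. TATAAA was in 8 (9.88%), against 12.7%, and the AP-1 letters TGANTCA in 5 (6.17%), against 6.91%. Among open promoters both orders turned round, with TATAAA at 10.3% of members against 7.18% and TGANTCA at 6.41% against 4.69%. The Nrf1 letters GCGCATGCG were in 1 member (1.23%), against 2.49%, and the Thap11 letters ACTACAATT in 2 (2.47%), against 0.49%. Both strands were searched for all 11 motifs, and those of 1 or 2 members rest on too few matches to compare. The GC content of the same window had a median of 55.5% in open members and 59.7% in other open genes, and its part in the shares was not tested.

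**Figure D5:**
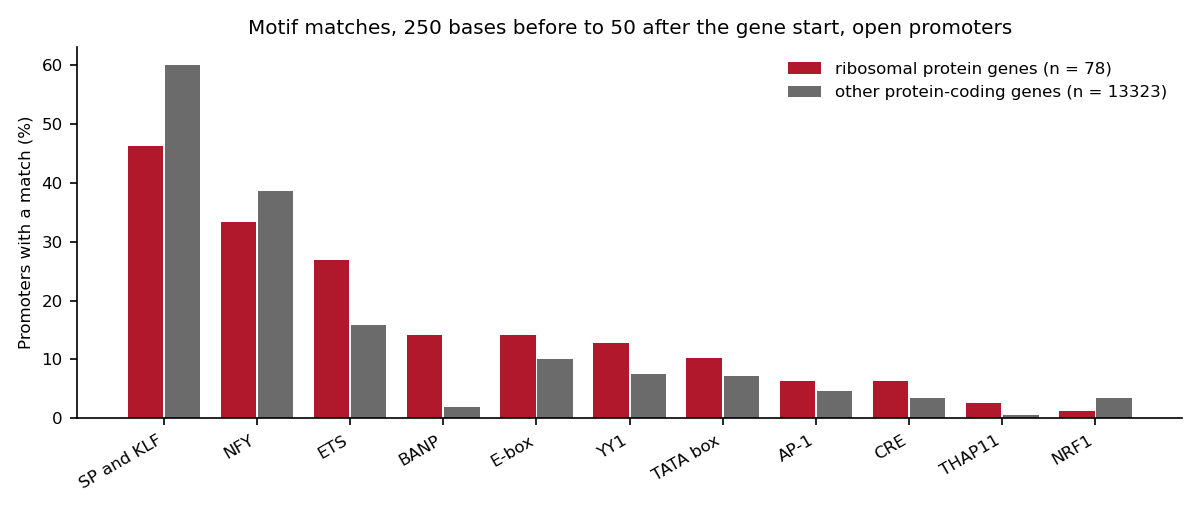
Share of promoters with a motif match on either strand (vertical axis, percent, from 0) for 78 open ribosomal protein genes (red) and 13323 other open protein-coding genes (grey), from 250 bases before to 50 bases after the gene start, sorted by the share in ribosomal protein genes. BANP stands at 14.1% against 2.00%, ETS at 26.9% against 15.9%, and SP and KLF at 46.2% against 60.1%.

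The pyrimidine tract was found at few annotated starts. A run of 5 or more C or T from the first annotated base on was present in 7 of 81 members (8.64%), against 4.25% of other genes. A run of 8 or more C or T within 50 bases of the gene start was present in 50 members (61.7%), against 35.6%. Starts of the RefSeq promoter table, which held 61 of the members, gave a run of 5 or more from the first base in 16 (26.2%), against 4.62% of other genes. Rpl32 had the longest tract from its first annotated base on, with 14 pyrimidines in a row.

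Another shared feature lies inside the genes. At least 1 snoRNA gene on the same strand lay within 29 of 81 members (35.8%), against 1.14% of other protein-coding genes. Together the members held 56 snoRNA genes, with 5 in Rpl4 and 4 in Rpl13a.

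Ribosomal protein genes have many retroposed pseudogenes, and those named after a member were mostly closed. A peak in both libraries lay within 1 kb of the start of 7 of 293 pseudogenes of any type named after a member (2.39%), against 2.04% of 9654 other processed pseudogenes. Any copy whose symbol does not name a member would count among the latter. The highest of the 7 was at Rpl38-ps1, with heights of 5.13 in replicate 1 and 3.24 in replicate 2. Rpl34-ps1 had 4.27 and 1.65, and Rpl29-ps2 had 3.43 and 3.12 in a peak that also lies near the start of Akr1e1. Whether reads that match several copies were kept is not stated, and its part in heights at members and pseudogenes was not tested.

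Genes that work with the ribosome were open as well. For comparison, 61.0% of the protein-coding genes outside the set had a promoter peak. The open ones had median percentiles of 87.3 in replicate 1 and 89.4 in replicate 2. All 19 further genes with terminal oligopyrimidine messages had a promoter peak, with median percentiles of 97.3 in replicate 1 and 97.8 in replicate 2. Among them were the assembly chaperone Npm1 (heights 9.75 and 7.51), Fau, which encodes a small subunit protein fused to a ubiquitin-like one (9.44 and 6.87), and the elongation factor Eef2 (11.4 and 5.76). All 78 mitochondrial ribosomal protein genes were open at medians of 92.1 and 92.2, led by Mrpl17 (12.5 and 9.66), Mrpl44 and Mrpl2. All 20 ribosome biogenesis genes were open at 93.5 and 95.2, led by Nop56, a core snoRNA-binding protein (12.9 and 8.87), Nat10 and Wdr12. The 11 genes of RNA polymerase I and its factors, which transcribe ribosomal RNA, were open at 90.8 and 92.6, led by Polr1d, Ubtf and Taf1d. The 12 genes that control these messages were open at 95.1 and 96.4, led by the mTOR partner Rptor (12.8 and 6.70), Akt1s1 and Rps6kb1. The peaks of Fau, Mrpl44, Mrpl2, Wdr12, Polr1d, Taf1d, Akt1s1 and Rps6kb1 also came within 1 kb of another protein-coding start. Their heights cannot be divided between the partners. Against these lists the 94.4 and 96.1 of the ribosomal protein genes were neither the highest nor the lowest.

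The libraries differed little at these promoters. The log2 height ratio of replicate 1 over replicate 2, centred on the median of all regions with 1 peak per library, had a median of 0.01 over the 78 genes and ran from −0.52 to 0.58. It lay within 0.5 of the centre at 73 genes (93.6%), against 87.7% of other genes. Rpl26 (0.58), Rps26 (0.58) and Rpl36al (0.51) stood highest, and Rpl30 (−0.52), Rpl39 (−0.52) and Rpl27 (−0.44) lowest. Heights ranked alike in the libraries, with a Spearman correlation of 0.89 across 78 members and 0.94 across 13323 other genes, which are genes of the same pair of libraries and no replicates.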

How the data were processed

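Peaks, footprints and cut rates were deposited by the authors per library on mm10, per the deposited read-me texts. Heights of peaks are deposited signal values with an unstated factor per library. The footprint score deposited by the authors is 0.01 throughout, so positions alone were used, and the deposited cut-rate value is a q-value (false discovery rate) for runs of positions. Aligner, caller and any filter on repeated sequence: not given in the sources used here. The shorter of the 2 deposited peak lists per library was used.

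Genes, starts and types came from GENCODE M21 and sequence from GRCm38, which is mm10, and as a check 229 of 229 annotated start codons of the members read ATG. Peaks of the libraries that overlapped by 1 bp or more formed a region, and 48886 regions held peaks of both. The highest peak within 1000 bp of any start stood for a gene. Log2 ratios were centred by subtracting 0.43. Motifs were searched in sequence 250 bases before to 50 after a start. Python 3.11.15, numpy 2.4.6, pandas 2.3.3 and matplotlib 3.10.9 were used, and the steps were tested on simulated data.

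Named genes were the 6 highest and 6 lowest members, those without a peak, the 5 with the most and the fewest footprints (ties included), the 3 at each end of the ratio, pairs of parent and paralog, members with a shared peak, the stalk genes and Rpsa, and the 3 highest of each list; others were chosen after their values were seen. These others are Rps6, Rps2, Rps3a1, Rpl32, Rpl35, Rpl13a and the named pseudogenes. They also include Rpl10a and Rps15a, whose BANP matches are printed, and Rpl23a, Rpl17 and Rps14, which lose their promoter peak in an alternative. Results of some members are not reported here by name. Members and lists were chosen with earlier results of these data known. Alternatives changed the window, list, threshold, overlap, library, start, symbol rule and motif window.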

Additional observations from a re-analysis of the deposited data

How the results depend on the processing

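The count of members with a promoter peak was 78 with windows of 250 and 500 bp, the longer lists, only peaks above the median height, or either library alone. Of other protein-coding genes, 58.6% had one within 250 bp, 65.4% in the longer lists and 54.5% above the median height. It was 77 when 50% of both peaks had to overlap (without Rpl23a), 74 from the gene's 5′ end alone (without Rps2, Rpl17, Rps14 and Rps10), 77 with 1 suffix letter and 80 with Rpl22l1 and Rpl7l1. The median percentile, 95.22 as a mean of both libraries, was 97.25 in the longer lists and 76.56 among promoter peaks of protein-coding genes alone, and 94.39 to 96.09 with 1 library left out. Other open genes had 88.37, and 92.56 in the longer lists. The median of footprints found in both libraries, 5.5, was 4 when 50% of both footprints had to overlap, and 9 in either library alone, where no second one is required. The median of accessible bases over the 81 members, 861.5, was 1008 at a rate of 0.01 and 1120 at 0.05, and 864 to 891 with 1 library left out. The peak centre, −22.25 as a mean, was −26.5 to −24 with 1 library left out. Open pseudogenes numbered 7, 13 with the longer lists (4.44%, against 3.70% of other processed pseudogenes) and 1 within 250 bp (0.341%, against 0.777%). Restricting the heights to autosomes or to unshared peaks, alternatives chosen after seeing the data like the RefSeq starts and the longest pyrimidine run, gave 95.54 each. Other open genes gave 88.80 and 86.37. Members with a BANP match stayed between 9 and 15 and those with an ETS match between 19 and 32. Shares of other promoters ran from 1.01% to 2% for BANP and from 8.35% to 15.9% for ETS. With 100 bases before the start searched, 6 members held an E-box match (7.41%, against 4.85%) and 2 an AP-1 match (2.47%, against 3.24%). The longer window gave 11 (13.6%, against 7.73%) and 5 (6.17%, against 6.91%). No paired analysis was possible because there is 1 group. With 2 libraries of unknown depth no replicate error beyond the pair of values can be given, and CAST alleles read against the mm10 sequence were not examined.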
